A study of Homo sapiens with 8 samples.

Results

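The MYC, MAX and MXD network is a group of transcription factors that compete for the same partner protein and the same DNA sequence. Its 10 genes were given by name: MYC, MYCL, MAX, MXD1, MXD3, MXD4, MXI1, MNT, MLX and MGA. Every probe whose RefSeq accession belonged to one of these genes was followed, which gave 21 of the 42405 non-control probes of the array. Of these 21 probes, 17 were bright enough to be tested, and all 10 genes had at least 1 tested probe among the 12125 genes tested in all. MYC had 1 probe and the other 9 genes had several.

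The measurements were made in KYSE850, an established cell line from a human esophageal squamous cell carcinoma. Total RNA was labelled with Cy3 and hybridised to 8 one-colour Agilent whole human genome arrays. On 4 arrays the cells had received control siRNA and on the other 4 they had received siRNA against KHSRP, an RNA-binding protein that acts in mRNA decay and microRNA maturation. No further treatment, time or allele separated the groups, and the labels do not tell which of the study's KHSRP siRNAs each array stands for, nor whether the replicates were separate cultures, so the p-values measure only the spread between these samples. The study followed MXD1 as a predicted target of miR-21 and picked it from these same arrays, so its direction here is not independent evidence. The paper also reported, by qPCR, a higher level of MXD1 mRNA in KYSE850 cells after KHSRP knockdown.

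MYC is a basic helix-loop-helix leucine zipper protein that binds DNA as a dimer with MAX and turns on genes for growth, ribosome production and metabolism. The MXD proteins, MXI1, MNT and MGA also need MAX, and their dimers occupy the same E-box sequence and mostly repress, in part by bringing the SIN3 corepressor with its histone deacetylases. MLX is a second partner protein, which pairs with MXD1, MXD4 and MNT on the repressing side and with the glucose-responsive factors MLXIP (MondoA) and MLXIPL (ChREBP) on the activating side. In squamous epithelia MYC is known from the dividing basal layers, and MXD1 from cells that leave the cell cycle and differentiate.

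The E-box bound by these dimers, CACGTG, reads the same on both strands and was searched for in the 250 bases before each annotated start (RefSeq, GRCh38.p14). The table used held 14 such windows for 9 of the genes, all but MYC, and 3 of the windows held the E-box, 1 each for MLX, MNT and MXD4. Over all 35116 windows of that table, 6.34% held it. The windows of these 3 genes are shown because they carry the motif of the network in its own members, and that of MXD1 because the study followed the gene. The capitals mark the E-box, whose first base lay 50 bases before the start in MLX, 193 in MNT and 238 in MXD4. All are written 5′ to 3′ on the strand of the gene. A match of these letters is a description and no measurement of binding.
MLX, chr17:42566850-42567099, plus strand: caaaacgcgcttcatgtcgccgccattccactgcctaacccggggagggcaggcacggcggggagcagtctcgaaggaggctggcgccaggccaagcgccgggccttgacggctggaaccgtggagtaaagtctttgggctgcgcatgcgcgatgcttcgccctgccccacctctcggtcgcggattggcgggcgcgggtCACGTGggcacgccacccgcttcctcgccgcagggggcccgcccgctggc
MNT, chr17:2401061-2401310, minus strand: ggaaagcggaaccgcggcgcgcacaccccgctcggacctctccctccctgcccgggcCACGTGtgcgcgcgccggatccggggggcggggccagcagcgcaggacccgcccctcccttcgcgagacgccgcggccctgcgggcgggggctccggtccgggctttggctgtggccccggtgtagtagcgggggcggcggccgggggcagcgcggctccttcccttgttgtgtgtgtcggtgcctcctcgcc
MXD4, chr4:2262110-2262359, minus strand: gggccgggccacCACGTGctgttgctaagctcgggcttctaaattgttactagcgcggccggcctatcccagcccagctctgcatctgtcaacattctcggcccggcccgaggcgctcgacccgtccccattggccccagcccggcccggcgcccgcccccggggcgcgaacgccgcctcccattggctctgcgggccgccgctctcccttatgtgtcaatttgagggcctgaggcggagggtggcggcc
MXD1, chr2:69914859-69915108, plus strand: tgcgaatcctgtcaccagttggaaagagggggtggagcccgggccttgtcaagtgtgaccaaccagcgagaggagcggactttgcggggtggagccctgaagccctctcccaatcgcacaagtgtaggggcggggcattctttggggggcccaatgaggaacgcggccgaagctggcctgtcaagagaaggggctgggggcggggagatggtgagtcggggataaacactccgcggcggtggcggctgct

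The mature miR-21 sequence is given for the same reason as the MXD1 window, with its seed (bases 2 to 8) in capitals (RefSeq, GRCh38.p14, chr17:59841273-59841294, plus strand). MicroRNAs were not measured on these arrays.
miR-21-5p: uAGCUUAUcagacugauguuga

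Levels below are log2 signals relative to the 75th percentile of the non-control probes on the same array, so that they compare arrays for 1 probe and not probes with each other. KHSRP itself lay between 5.81 and 6.39 on the control arrays and between 2.52 and 2.88 on the KHSRP siRNA arrays, and the groups did not overlap (exact permutation p = 0.0286, two-sided, the smallest that 4 against 4 arrays allow). Between 19145 and 20938 probes were well above background on an array and 0 spots were saturated. All 10 squamous epithelial markers examined were well above background on all 8 arrays, as was 1 of 6 fibroblast markers (COL1A1, with the other 5 on 0 arrays). None of 6 leukocyte and endothelial markers was so on all 8 arrays, and PECAM1, VWF and CDH5 were on 0. The first principal component (49.5% of the variance) did not separate the siRNAs but divided the arrays into 2 sets of 4, and the second (24.4%) separated the siRNAs. The first set held control siRNA replicates 1 and 3 and KHSRP siRNA replicates 1 and 4. The second set held control siRNA replicates 2 and 4 and KHSRP siRNA replicates 2 and 3. The sets were read from the data and are not groups of the study.

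The columns of the series matrix for KHSRP siRNA replicates 3 and 4 held the scanner values of each other. Numbered as in the series matrix, each KHSRP siRNA array paired with the control array it deviated with most over 17229 probes, and each pair lay within 1 set. Replicates are named here by the scanner files. In deviations from the group means, KHSRP siRNA replicate 1 correlated at 0.57 with its partner and at 0.40 with the other control array of its set. For replicates 2, 3 and 4 these values were 0.48 and 0.41, 0.86 and 0.45, and 0.86 and 0.44. The labels do not say that equal numbers mark pairs, and this numbering was preferred for its correlations in these same data. The paired test is therefore given beside the unpaired limma fit, and the calls of the 2 fits should be read against their own backgrounds. The unpaired fit called 6.19% of all genes tested (adjusted p under 0.05), 2.14% higher, and the paired fit called 33.0%, with 15.9% higher and 17.1% lower.

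MLX rose with KHSRP siRNA at its brightest tested probe, and it was the only one of the 10 genes called in the unpaired fit. Its second probe differed by -0.02 and was not called. MYC, MXD1, MXI1 and MNT had higher means with KHSRP siRNA and MXD3 a lower one, by 1.31- to 1.64-fold, but did not pass the adjusted threshold without pairing. With pairing, MYC, MXD1, MXI1, MNT and MLX were called higher and MXD3 lower, so 6 of 10 genes were called where 33.0% of all genes were. MAX, MYCL, MXD4 and MGA were called in neither fit at their brightest tested probe. With slide as a block the call was again MLX alone. An unadjusted p under 0.05 was found for 6 of the 10 genes and for 2517 of all 12125. The groups did not overlap for MYC, MNT and MLX, all higher with KHSRP siRNA. Over all 12125 genes they did not overlap for 786 that were higher and 1179 that were lower, or 16.2% in either direction. The median log2 fold change of the 10 genes was 0.36, beside 0.0058 over all 12125 genes, whose median absolute change was 0.20.

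**Figure D1:**
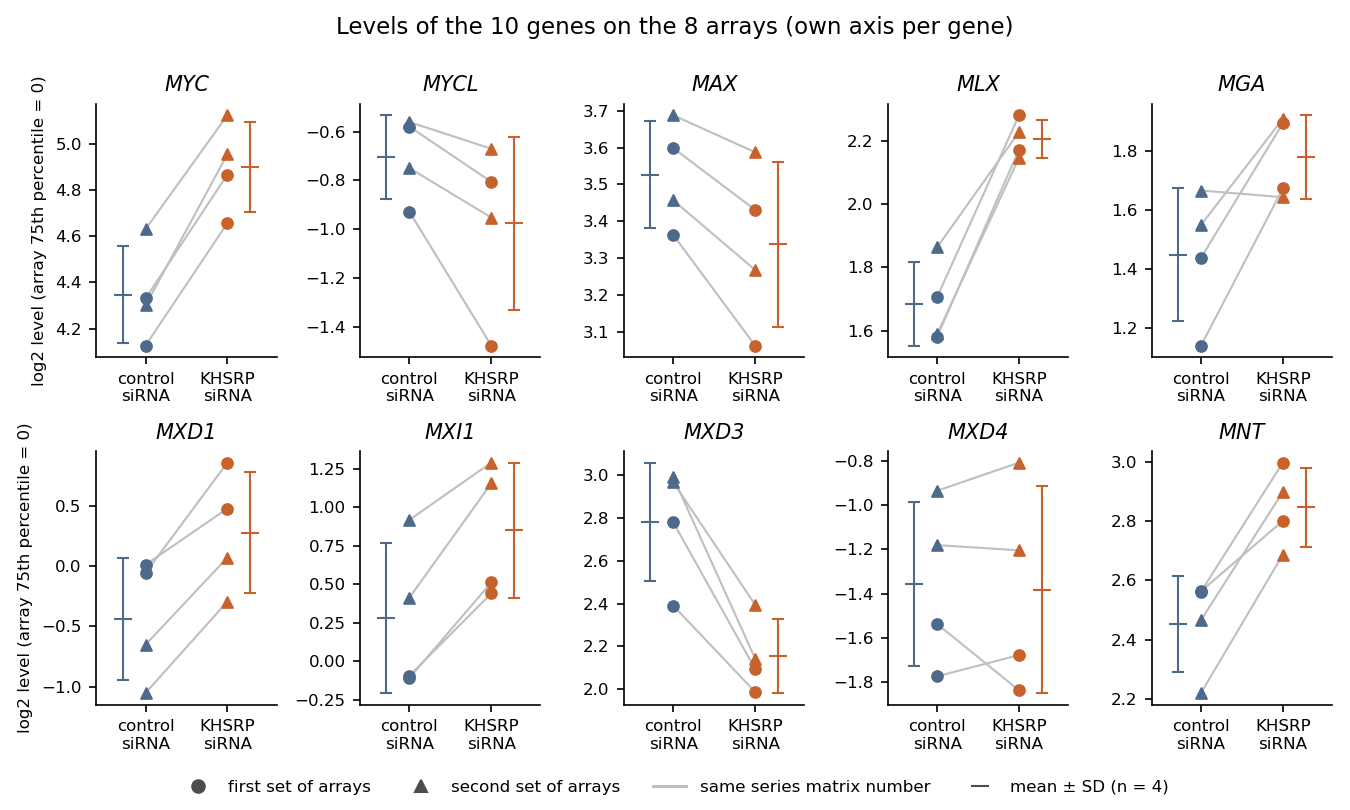
Log2 level of the brightest tested probe of each gene (vertical axis, array 75th percentile = 0, own scale per gene) with control siRNA (blue) and KHSRP siRNA (orange), 1 symbol per array, circles for the first and triangles for the second set of arrays, grey lines joining arrays of the same series matrix number and bars for mean ± SD (n = 4). The lines of MYC, MXD1, MXI1, MNT and MLX rise in all 4 pairs, those of MXD3 fall in all 4, and MXD1 and MXI1 separate by set within each siRNA group in opposite directions.

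MYC, the activator at the centre of the network, was read by A_23_P215956, which has 10 spots on each array. Its level was 4.13, 4.30, 4.33 and 4.63 on the control arrays 1 to 4 and 4.66, 4.96, 5.13 and 4.87 on the KHSRP siRNA arrays 1 to 4. The groups did not overlap, the closest arrays being KHSRP siRNA replicate 1 and control siRNA replicate 4. The means were 4.35 ± 0.21 and 4.90 ± 0.20 (SD, n = 4 each), a log2 fold change of 0.56 (SE 0.15, 95% confidence interval 0.21 to 0.90, 1.47-fold) with an adjusted p of 0.0728 in the limma fit. Within the 4 pairs the difference was 0.53, 0.66, 0.54 and 0.49, and the paired limma fit gave an adjusted p of 0.0040. The difference was similar in each pair, while the arrays of 1 group differed among themselves by about as much. MYC passed the threshold under normexp background correction (adjusted p = 0.0293), quantile normalization (0.0427) and array weights (0.0483). It did not pass without the filter on dim probes (0.266), with median scaling (0.166) or with the block by scanner file numbers (0.149). Nor did it pass in any limma fit that left out 1 array (adjusted p 0.0602 to 0.189).

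The 10 spots of the MYC probe show how far the measurement itself varied within an array. The standard deviation over the spots was 0.053 to 0.092 on the 8 arrays, against 0.21 and 0.20 between the arrays of a group. The highest single control spot, at 4.75 on control siRNA replicate 4, lay above the lowest KHSRP siRNA spot, at 4.57 on KHSRP siRNA replicate 1. The separation of the arrays that were closest was thus smaller than the scatter of their spots.

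**Figure D2:**
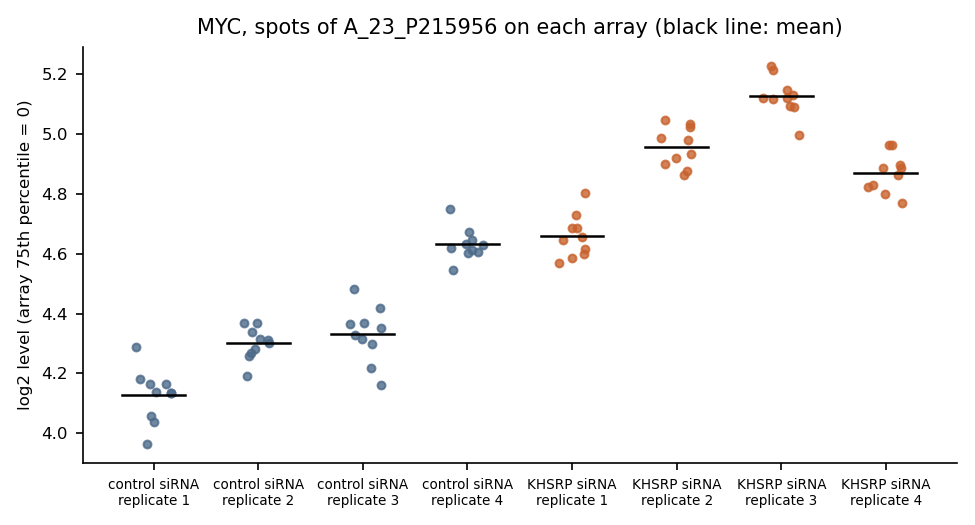
Log2 level of each of the 10 MYC spots on every array (vertical axis, array 75th percentile = 0), with control siRNA in blue, KHSRP siRNA in orange and a black line at the mean of each array. The spots of control siRNA replicate 4 and KHSRP siRNA replicate 1 share a range, and all spots of KHSRP siRNA replicates 2 to 4 lie above all control spots.

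MYCL, the family member first known from lung cancer, was read by A_33_P3306068 at -0.58, -0.56, -0.93 and -0.75 with control siRNA and at -0.81, -0.67, -0.95 and -1.48 with KHSRP siRNA. The groups overlapped, and the difference of -0.27 (95% confidence interval -0.70 to 0.16) was not called by limma (adjusted p = 0.506, paired 0.0735). All 4 pairs were lower, by 0.11 to 0.55 in size. Its second probe, A_23_P160668, was well above background on 0 of 8 arrays.

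MAX, the partner that MYC and the repressors share, was read by A_23_P205549 at 3.60, 3.69, 3.36 and 3.46 with control siRNA and at 3.43, 3.59, 3.27 and 3.06 with KHSRP siRNA. The groups overlapped widely, with a difference of -0.19 (95% confidence interval -0.52 to 0.14, limma adjusted p = 0.554, paired 0.0794). A second MAX probe, A_23_P151662, differed by -0.06 (adjusted p = 0.887). The third and dimmest, A_23_P436138, passed the scanner's background criterion on all 4 arrays with control siRNA but on 2 with KHSRP siRNA, and its groups did not overlap. It lay between -2.97 and -2.73 with control siRNA and between -4.22 and -3.06 with KHSRP siRNA. The difference of -0.71 (95% confidence interval -1.28 to -0.14) had an adjusted p of 0.153 in limma and 0.0381 with pairing, and it was -0.10 under normexp background correction. Its interval shared values with those of the other MAX probes.

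MXD1, a repressor induced in differentiating cells, was read by A_24_P379750 at 0.01, -0.65, -0.06 and -1.05 with control siRNA and at 0.48, 0.07, -0.29 and 0.86 with KHSRP siRNA. The groups overlapped, and in both groups the arrays of the first set were the high ones. The means were -0.44 ± 0.51 and 0.28 ± 0.50 (SD, n = 4 each), a difference of 0.72 (SE 0.31, 1.64-fold) with an adjusted p of 0.251 in limma. Every pair was higher with KHSRP siRNA, by 0.47, 0.72, 0.91 and 0.76, and the paired limma fit gave an adjusted p of 0.0049. Within the first set of arrays the difference was 0.69 and within the second 0.74. The dimmer probe A_23_P408094 was also higher in all 4 pairs, by 0.14 to 0.62, with a mean difference of 0.41 (adjusted p = 0.705, paired 0.0284) that lay between 0.11 (without KHSRP siRNA replicate 4) and 0.74 (without control siRNA replicate 3) when 1 array was left out. Normexp background correction gave 0.43 for the first MXD1 probe and 0.14 for the second.

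MXI1, the repressor also named MXD2, was read by A_33_P3383029 at -0.09, 0.41, -0.11 and 0.92 with control siRNA and at 0.44, 1.15, 1.29 and 0.51 with KHSRP siRNA. The groups overlapped here too, and the arrays of the second set were the high ones in each group. The difference was 0.57 (SE 0.29, 95% confidence interval -0.09 to 1.23, adjusted p = 0.338 in limma) and all 4 pairs were higher, by 0.37 to 0.74 (paired adjusted p = 0.0069). A second probe, A_23_P161399, gave a difference of 0.61 (adjusted p = 0.365, paired 0.0047), or 0.35 under normexp. The third, A_33_P3263902, was well above background on 2 control and 3 KHSRP siRNA arrays, too few to be tested, and its means differed by 0.92. The direction was thus common to the 3 MXI1 probes.

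MXD3, the family member tied to proliferating cells, went the other way. Its probe A_33_P3297255 stood at 2.78, 2.99, 2.39 and 2.96 with control siRNA and at 2.09, 2.14, 2.39 and 1.99 with KHSRP siRNA. The groups touched at replicate 3 of each, at 2.390 and 2.394. The difference was -0.63 (SE 0.16, 95% confidence interval -0.999 to -0.25, adjusted p = 0.0659 in limma), and it passed the threshold with pairing (0.0069), under normexp background correction (0.0385), with array weights (0.0350) and without control siRNA replicate 3 (0.0321). It did not pass with slide (0.0790) or scanner file numbers (0.217) as a block, nor when any other array was left out. All 4 pairs were lower, by 0.40 to 0.85 in size. A second MXD3 probe, A_24_P417706, was well above background on 1 array of each group and was not tested.

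MXD4, a repressor found in many tissues, did not differ detectably. Its probe A_24_P234732 had means of -1.36 ± 0.37 with control siRNA and -1.38 ± 0.47 with KHSRP siRNA (SD, n = 4 each), and the difference of -0.02 (95% confidence interval -0.63 to 0.58, limma adjusted p = 0.981, paired 0.860) was small beside that spread. Of the 4 pairs, 2 were higher. A dimmer probe, A_23_P423695, was well above background on 3 control arrays and 1 KHSRP siRNA array and was not tested.

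MNT, the repressor present in dividing and resting cells alike, was read by A_23_P341443 at 2.56, 2.47, 2.56 and 2.22 with control siRNA and at 2.80, 2.90, 2.69 and 2.996 with KHSRP siRNA. The groups did not overlap. The difference was 0.39 (SE 0.13, 95% confidence interval 0.11 to 0.68, adjusted p = 0.120 in limma), with all 4 pairs higher by 0.24 to 0.47 and an adjusted p of 0.0122 with pairing. The dim probe A_33_P3246733 differed by 0.05 (95% confidence interval -0.52 to 0.61, adjusted p = 0.956) and was higher in 1 of 4 pairs. That interval holds the 0.39 of the brighter probe.

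MLX, the partner of MondoA and ChREBP, was read by A_23_P164148 at 1.71, 1.86, 1.58 and 1.59 with control siRNA and at 2.28, 2.23, 2.15 and 2.17 with KHSRP siRNA. The groups did not overlap. The means were 1.69 ± 0.13 and 2.21 ± 0.06 (SD, n = 4 each), a rise of 0.52 (SE 0.11, 95% confidence interval 0.27 to 0.77, 1.43-fold) that limma called with an adjusted p of 0.0295 (paired 0.0059, with slide as a block 0.0201). Within the 2 slides the difference was 0.47 and 0.57. Leaving out any array but control siRNA replicate 2 ended the call, with adjusted p-values up to 0.0872, as did median scaling (0.287), testing without the filter on dim probes (0.185), the block by scanner file numbers (0.117) and the mean over both probes (0.147). The second MLX probe, A_19_P00810045, differed by -0.02 (95% confidence interval -0.31 to 0.27, adjusted p = 0.963), with 2 of 4 pairs higher, so the rise was seen at 1 of the 2 MLX probes.

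MGA, the large factor that joins MAX to a polycomb complex, was read by A_23_P37654 at 1.14, 1.67, 1.44 and 1.55 with control siRNA and at 1.67, 1.64, 1.91 and 1.89 with KHSRP siRNA. The groups overlapped, through control siRNA replicate 2. The difference of 0.33 (95% confidence interval 0.0048 to 0.66) had an adjusted p of 0.247 in limma and 0.0672 with pairing, and 3 of 4 pairs were higher. The dimmer probe A_33_P3330323 gave a similar difference of 0.36 (adjusted p = 0.425).

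**Figure D3:**
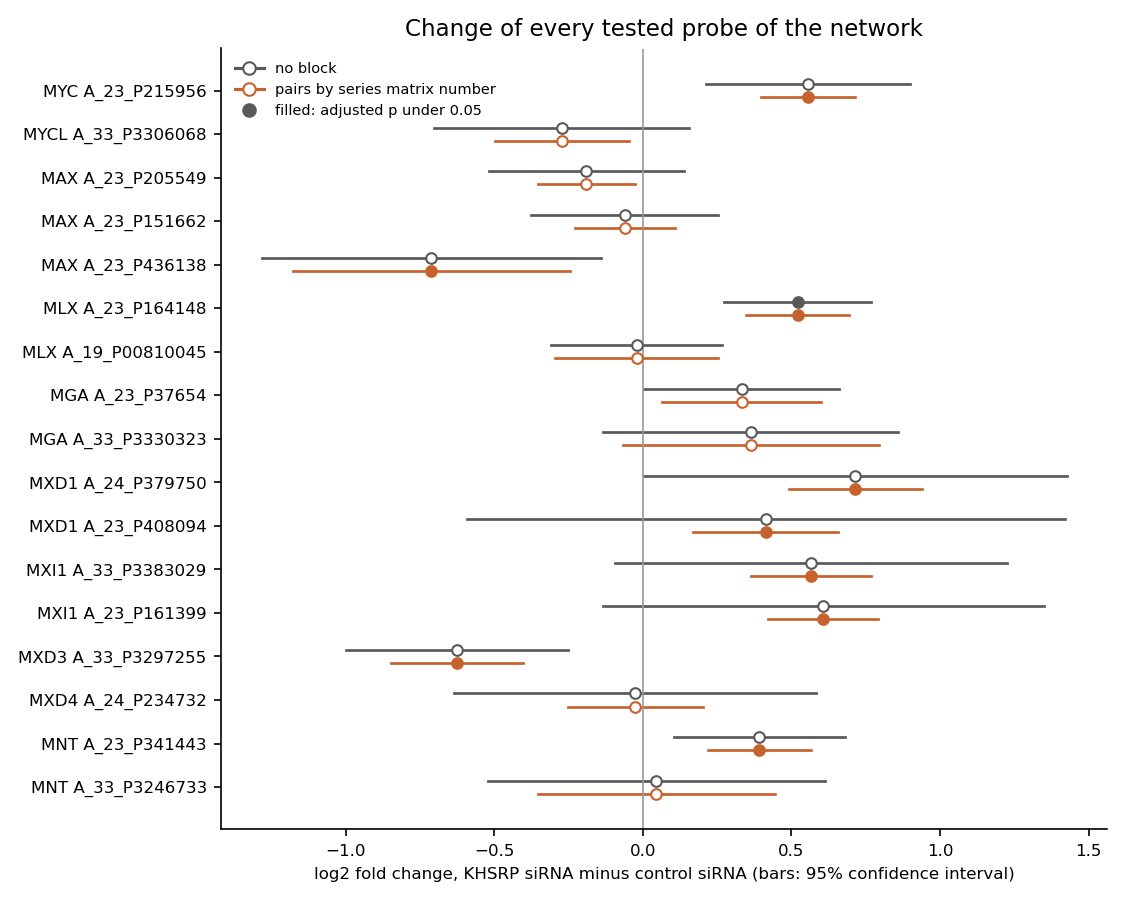
Log2 fold change of KHSRP siRNA over control siRNA (horizontal axis) for each of the 17 tested probes, with 95% confidence intervals from limma without a block (grey) and with pairs by series matrix number (orange), filled where the adjusted p was under 0.05. MLX A_23_P164148 is the only probe filled without a block, and 9 of the 17 probes are filled with pairs, with the shorter intervals of MXD1 and MXI1 standing out. Of all 18761 tested probes, 1039 were called without a block and 5644 with pairs.

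MXD1, MXI1 and MXD4 differed more between the sets of arrays than between the siRNAs. Taken as the mean of the second set minus that of the first, MXD1 differed by -0.80, MXI1 by 0.76 and MXD4 by 0.68, where the median absolute difference over all genes was 0.27. These absolute differences were larger than those of 87.2% of genes for MXD1, 85.5% for MXI1 and 82.9% for MXD4. The repressors thus split, MXD1 high where MXI1 and MXD4 were low. MYC differed by 0.26, MXD3 by 0.31, MNT by -0.16 and MLX by 0.02 between the sets. The squamous markers moved with the sets as well, being lower in the second set for 9 of 10, with a median of -2.14. The summed level of the 10 markers ranged from 7.65 to 9.18 with control siRNA and from 7.81 to 9.36 with KHSRP siRNA. These are like ranges, but the sum mixes probes and leans on the brightest, SFN. Singly, 5 of the 10 had a higher mean with KHSRP siRNA and 5 a lower one. The changes ran from -0.74 for DSG3 to 0.55 for CDH1, and 0 were called. The part of the set difference of the markers in the values of MXD1, MXI1 and MXD4 was not tested. In whole cultures, fewer cells of a kind and less RNA per cell cannot be told apart.

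**Figure D4:**
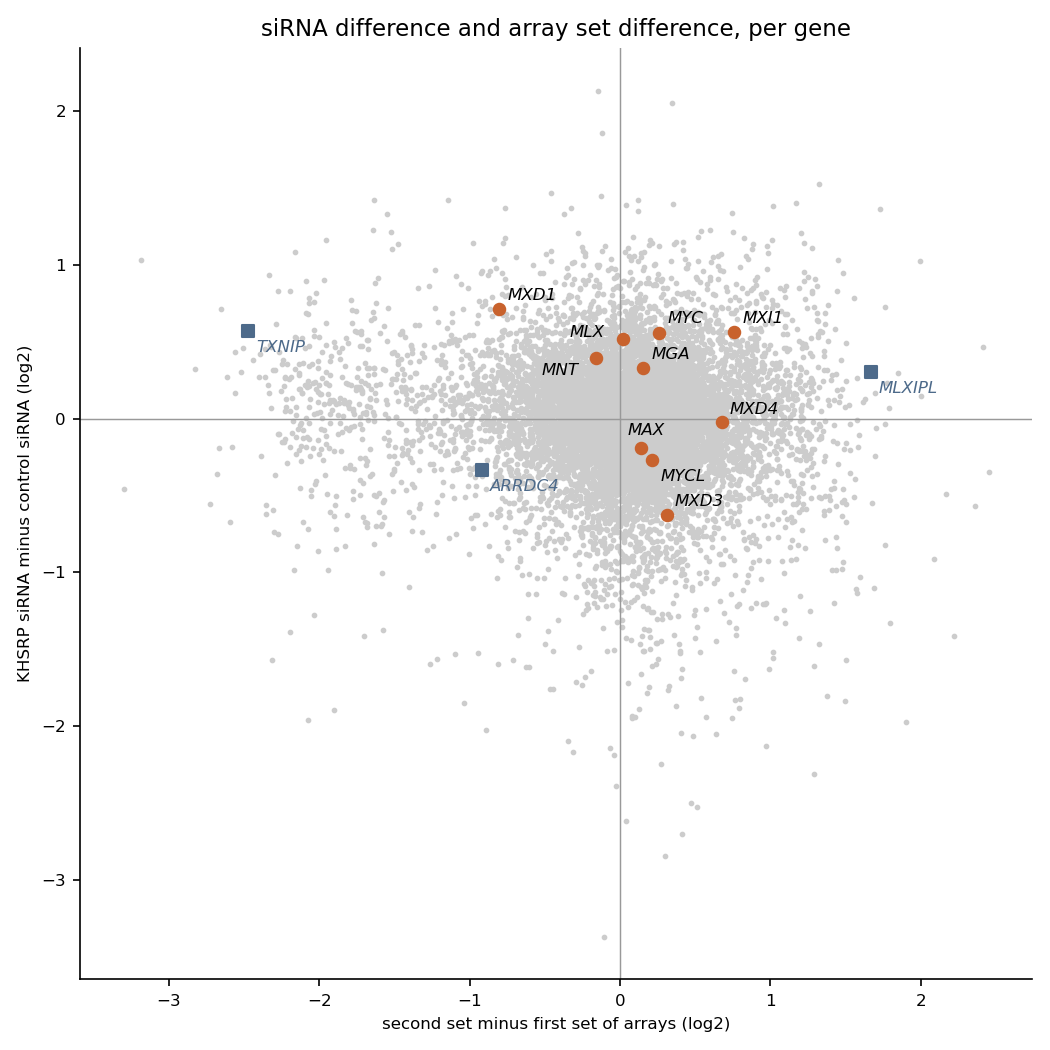
For each of 12125 genes (grey), the difference between the second and first set of arrays (horizontal axis, log2) against that between KHSRP siRNA and control siRNA (vertical axis, log2), with the 10 network genes in orange and TXNIP, ARRDC4 and MLXIPL as blue squares. MXD1 lies at -0.80 and MXI1 at 0.76 along the horizontal axis with vertical positions of 0.72 and 0.57, and TXNIP is far to the left at -2.47.

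Among the other factors of the same family, MYCN was not well above background on any array. MLXIP, which pairs with MLX, gave opposite answers at its 2 probes. A_23_P9823 stood at 2.32, 2.90, 2.17 and 2.41 with control siRNA and at 3.18, 3.15, 2.98 and 2.81 with KHSRP siRNA (0.58, limma adjusted p = 0.105, paired 0.0148). A_24_P415624 fell by 1.04, from between -0.87 and -0.46 to between -1.88 and -1.40, with an adjusted p of 0.0067 and a call without each array in turn. MLXIPL, the other partner, lay between -0.85 and 1.25 with control siRNA and between -0.80 and 1.56 with KHSRP siRNA, and followed the set of arrays (second minus first 1.67) more than the siRNA (0.30, adjusted p = 0.875).

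Of the genes whose proteins work with the network or answer to it, 134 were listed and 121 tested. Of these 121, 8 were called, KHSRP, the target of the siRNA, among them. This was a share close to the 6.19% called over all 12125 genes. With pairing, 35 of the 121 were called, where 33.0% of all genes were. Whether any single list held more calls than the share over all genes was not tested for either fit. In the SIN3 corepressor with its histone deacetylases, 0 of 14 tested genes were called higher and 1 lower, with a median of -0.04, and 7 had a higher mean. The gene called lower was SUDS3, a SIN3 subunit, which fell by 0.67 (limma adjusted p = 0.0175, lost without control siRNA replicate 1 or 2). HDAC1, the deacetylase, had a difference of 0.60 (adjusted p = 0.0617, paired 0.0037). With pairing, 1 gene of this list was called higher and 3 lower. Of the 14 tested coactivators and partners of MYC, 0 were called and the median was -0.04, and in the MGA polycomb complex 0 of 10 were called with a median of -0.08. With pairing, 2 were called higher and 3 lower among the coactivators, and 1 higher and 2 lower in the MGA complex.

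Among the listed factors that act on MYC protein, 0 of 10 tested genes were called higher and 2 lower, with a median of -0.07, and 4 had a higher mean. AURKA, a mitotic kinase that shields MYC family proteins from degradation, fell from 3.55 ± 0.32 to 2.41 ± 0.18 (SD, n = 4 each), a log2 fold change of -1.14 (SE 0.18, limma adjusted p = 0.0096) that was called without each array in turn. FBXO28, a ubiquitin ligase subunit that acts on MYC, fell from 1.27 ± 0.04 to 0.38 ± 0.29 (-0.89, adjusted p = 0.0135, lost without control siRNA replicate 1). With pairing, 0 genes of the list were called higher and 3 lower. PLK1, USP28, USP36 and CIP2A had no tested probe.

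Of the 15 regulators of the MYC gene and its mRNA, 2 were called higher and 1, KHSRP, lower, with a median of -0.10, and 7 had a higher mean. FUBP1, which binds DNA upstream of MYC and is a relative of KHSRP, lay between 1.62 and 2.16 with control siRNA and between 2.46 and 3.23 with KHSRP siRNA, a rise of 0.98 (SE 0.20, adjusted p = 0.0262 in limma). The study also listed FUBP1 among its predicted targets from these arrays, and the call at this probe, A_23_P45699, was lost without any 1 of control siRNA replicates 1 to 3 or KHSRP siRNA replicates 1 to 3. A second FUBP1 probe, A_33_P3281151, rose by 0.97 (SE 0.15, adjusted p = 0.0103) and was called without each array in turn. ZFP36L1, a decay factor for AU-rich mRNAs, rose by 0.67 (adjusted p = 0.0085) and was called without each array in turn. FUBP3, another relative, differed by -0.35 (adjusted p = 0.123, paired 0.0443) and PUF60, which binds FUBP1 and holds back MYC transcription, by -0.29 (adjusted p = 0.279, paired 0.0176). With pairing, 3 of the 15 regulators were called higher and 3 lower.

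Of the 41 tested genes that MYC is known to activate, 0 were called in either direction. Their median log2 fold change was -0.04, 14 of the 41 had a higher mean with KHSRP siRNA, and the range was -0.34 to 0.68. With pairing, 4 were called higher and 3 lower, a share below the 33.0% of all genes. Among the 10 tested genes that MYC is known to repress, 2 were called higher and 0 lower, with a median of 0.11. Called or not, 6 of the 10 had a higher mean with KHSRP siRNA and 4 a lower one, and the range was -0.64 to 0.70. CEBPA, a differentiation factor, rose by 0.70 (limma adjusted p = 0.0230) and NDRG1, a stress-response gene, by 0.61 (adjusted p = 0.0304), each called in 2 of the 8 fits that left out 1 array. With pairing, 2 of the 10 were called higher and 1 lower, beside the 33.0% of all genes.

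Of the 7 tested targets of MondoA and ChREBP, 0 were called without pairing, and the median was 0.19. With pairing, 3 were called higher and 1 lower, where 33.0% of all genes were called. TXNIP, which holds back glucose uptake, stood at -0.44, -2.34, 0.35 and -2.92 with control siRNA and at -0.09, -1.35, -2.55 and 0.91 with KHSRP siRNA. The set of arrays gave a difference of -2.47 in TXNIP and the siRNA one of 0.57 (adjusted p = 0.827, paired 0.0224), which lay between 0.0069 (without KHSRP siRNA replicate 4) and 1.16 (without KHSRP siRNA replicate 3) when 1 array was left out. ARRDC4, its relative and a target of the same factors, was lower in the second set too, by 0.92 in size, but its siRNA difference was -0.34 (adjusted p = 0.679, paired 0.0294), or -0.51 to -0.13 with 1 array left out.

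**Figure D5:**
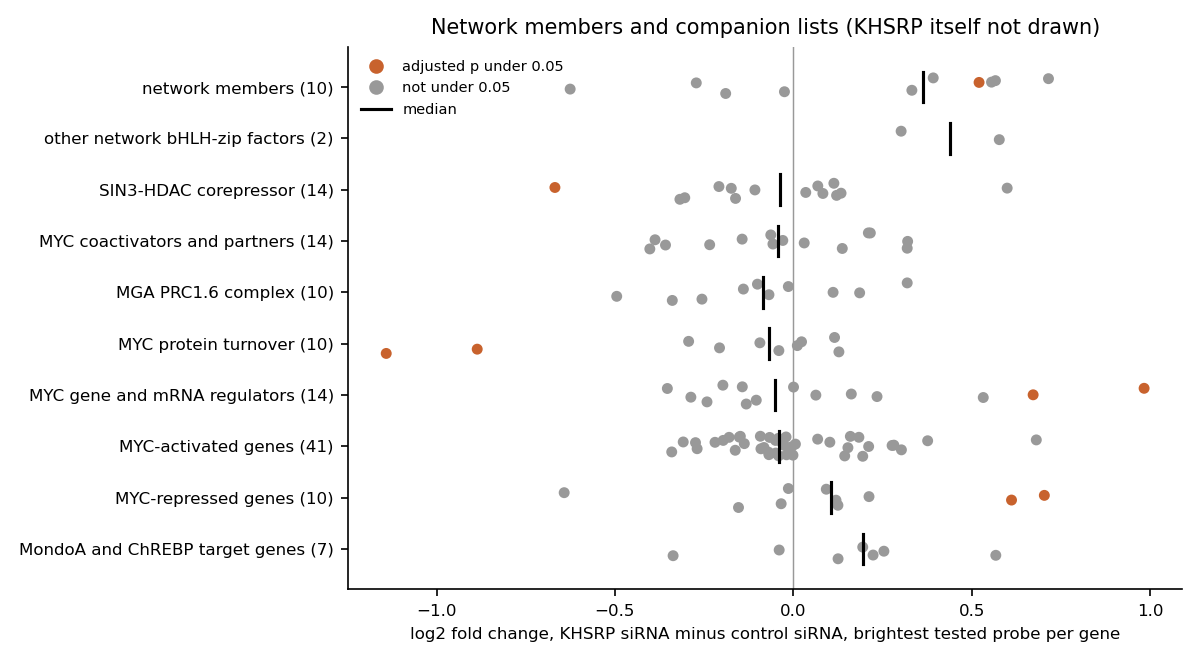
Log2 fold change of KHSRP siRNA over control siRNA (horizontal axis) for the brightest tested probe of each gene in the network and in 9 companion lists, 1 dot per gene, orange where the limma adjusted p was under 0.05, with a black bar at the list median and the number of genes drawn in brackets (KHSRP itself left out). The median of the network genes is 0.36, that of the 41 MYC-activated genes is -0.04, and AURKA and FBXO28 lie farthest to the left.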

How the data were processed

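Messenger RNA of 4 control siRNA and 4 KHSRP siRNA samples was measured, grouped by the labels. All were used. The authors extracted the deposited scanner values, linear fluorescence intensities that were background-subtracted within each array and not scaled between arrays, with Agilent Feature Extraction (version 11.5.1.1 per the file headers, 12.6 per the labels). The deposited series matrix holds log2 values, made with GeneSpring per the methods, and was used for an alternative and for its sample numbers.

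Control spots and outlier-marked spots were removed, spots were log2-transformed and averaged per probe, and the 75th percentile of the non-control probes of the array was subtracted. The tested probes, 18761 in number, passed the scanner's background criterion in at least 0.5 of their spots on every array of 1 group or both. Symbols came through RefSeq accessions (GRCh38.p14), and the tested probe with the highest mean stood for a gene. The sequence windows are from the same annotation and share no coordinates with the array files.

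Differences between the groups were fitted in R 4.3.3 by limma 3.58.1 (lmFit, eBayes, two-sided), adjusted over all tested probes by the Benjamini-Hochberg method. Called means an adjusted p under 0.05. The fit was tested on simulated data. Tables were made with Python 3.11.15, pandas 2.3.3 and scipy 1.17.1. Precision is limited by the number of arrays. Each of the 2 slides held both groups.

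The paired fit used the series matrix numbers as a block. By these numbers every pair of arrays correlated in its deviations from the group means (0.48 to 0.86), whereas the scanner file numbers gave -0.69 to 0.57. The sets of arrays were added after seeing the data.

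The members, lists and tests were chosen with earlier results of these data known. Single genes named are every probe of the members, KHSRP, the called genes with the 2 largest rises and 2 largest falls of each companion list, MYCN, MLXIP and MLXIPL, FUBP1, FUBP3 and PUF60, TXNIP and ARRDC4, and the 3 genes most like MXD1 and MYC. HDAC1, the markers and untested genes are named outside this rule and after their values were seen. Alternatives covered the scaling, background correction, dim-probe filter, blocks, array weights, variance trend, averaging the probes of a gene, the methods' t-test, and leaving out each array. No transcript or protein sequences were used here.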

Additional observations from a re-analysis of the deposited data

Results flagged for a closer look

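In the groups of 4 arrays examined, 1 of 62 held an array far from the others, where chance would give about 1 in 20. The dim MGA probe A_33_P3330323 stood at -2.02 on KHSRP siRNA replicate 1 and at -1.71 on the nearest of the other KHSRP siRNA arrays, a gap that took 0.960 of the group's whole range, above Dixon's limit for 4 values.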

How the results depend on the processing

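The KHSRP fall kept its direction under all 27 alternatives to the main setting, and its call under those that gave a test (values within a slide or a set have none). Against 1 of the 10 network genes called in the main fit, 2 were called with quantile normalization, 3 with normexp background correction and 3 with array weights, and 0 with median scaling, without the filter on dim probes or with the mean over a gene's probes. With the replicate block, pairing by series matrix numbers gave 6 and the scanner file numbers 0, and the block by set of arrays gave 6. Of all 12125 genes tested, these fits called 4000, 106 and 2132 in the same order. Leaving out 1 array gave 0 to 1 of the network genes. Against 8 companion genes called, median scaling gave 4, no filter 2, the replicate block by scanner numbers 1, the replicate block by series matrix numbers 35, and the set block 15. Leaving out 1 array gave 3 to 7. Over all probes, 1039 calls became 5644 with pairing by series matrix numbers and 156 with scanner numbers. The cause was not tested.

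Differences near 0 changed sign. Leaving out 1 array gave -0.15 to 0.0051 for MAX A_23_P151662, -0.22 to 0.13 for MXD4 A_24_P234732, -0.19 to 0.22 for MNT A_33_P3246733, -0.068 to 0.050 for MLX A_19_P00810045 and -0.089 to 0.78 for MLXIPL. The same MNT probe gave -0.028 with median scaling and -0.0033 with normexp, and MLXIP -0.23 as the mean over its probes. No scaling moved the median of all genes by over 0.1 (the largest shift was -0.074, with median scaling), and 6 of the 10 network genes were higher under each.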

Other observations

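By the root mean square difference over the 8 arrays after centring each probe on its own mean, among 12124 genes, the patterns most like that of MXD1 were those of LRRC8A (0.113), SERPINB5 (0.122) and FERMT1 (0.126), where MXD1 itself had a root mean square of 0.563 about its mean. LRRC8A is a subunit of the volume-regulated anion channel, SERPINB5 is maspin, a serpin of epithelial cells, and FERMT1 is kindlin-1, an integrin partner of keratinocytes. Like MXD1, each was lower in the second set of arrays, by 0.87, 0.79 and 0.90 in size, and higher with KHSRP siRNA in all 4 pairs, by a mean of 0.72, 0.53 and 0.74 (limma adjusted p = 0.266, 0.412 and 0.285, paired 0.0021, 0.0061 and 0.0043). LRRC8A, SERPINB5 and FERMT1 were picked for their likeness to MXD1 on these arrays, so the shared differences follow from the choice.

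The patterns most like that of MYC were those of U2SURP (0.056), a splicing-associated protein, ADRA2C (0.058), an adrenergic receptor, and FOXJ3 (0.067), a forkhead factor, where that of MYC about its mean was 0.328. Their log2 fold changes with KHSRP siRNA were 0.58, 0.52 and 0.53, with limma adjusted p-values of 0.0594, 0.0647 and 0.0730 (paired 0.0042, 0.0048 and 0.0039). These genes were ranked by likeness on the same arrays, so their differences are a description.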
